A study of Homo sapiens with 16 samples.

Results

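The interferon regulatory factors (IRFs) IRF1, IRF2, IRF3, IRF5, IRF7, IRF8 and IRF9 were followed in LP-1 cells with and without forced expression of cIAP2, the product of BIRC3 and an inhibitor of apoptosis protein. The 7 genes were picked by symbol and found through the RefSeq accession of each probe, which gave 8 of the 50599 gene probes on the array. IRF3 had 2 probes and the other genes had 1 each. All 8 probes passed the filter on signal, and the 7 genes are among 16394 genes tested. Averaged over conditions, IRF1 was 2.59-fold lower in the LP-1-cIAP2-eGFP cells than in control cells, IRF9 was lower in that line, IRF8 passed as higher but lost its call under several alternatives, and IRF5 and IRF7 rose after 24 h of bortezomib in both lines.

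IRFs are DNA-binding proteins that carry interferon and pathogen signals to their target genes. IRF3 and IRF7 are phosphorylated by the kinases TBK1 and IKKε and switch on the interferon genes, and IRF5 acts below Toll-like receptors through MyD88. IRF9 is the DNA-binding subunit of ISGF3, the factor that type I interferon uses at interferon-stimulated response elements. IRF1 is itself induced by interferon and by NF-κB and drives antigen presentation genes, IRF2 competes with IRF1 for the same sites, and IRF8 is a partner factor of B-cell and myeloid genes.

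LP-1 is an established line of human multiple myeloma, a tumor of plasma cells, with deleted or mutated TRAF3. The cells were transduced with lentivirus carrying cIAP2 and eGFP (LP-1-cIAP2-eGFP) or eGFP alone (LP-1-eGFP, the control), and each line was left untreated or given 10 nM bortezomib, a proteasome inhibitor, for 6 h or 24 h. Each of the 8 conditions had 2 biological replicates, so 16 one-colour arrays were read. All cells of both lines carry a lentiviral insertion, eGFP and the TRAF3 lesion, and a single parental line was used. P-values measure the spread between these cultures. RNA came from whole cultures, so that fewer cells with a transcript and less transcript per cell cannot be told apart. The BIRC3 probe read 13.58 in untreated control cells and 12.01 in untreated LP-1-cIAP2-eGFP cells on the log2 scale (difference −1.57, limma adjusted p = 2.24e-05). It lies in the 3′ end and sees the endogenous transcript alone, so it cannot check the label. The paper reports more cIAP2 in LP-1-cIAP2-eGFP than in control cells, as mRNA by qRT-PCR and as protein by western blot. Of 10 plasma cell markers, 8 were well above background on all 16 arrays, with XBP1, the plasma cell transcription factor, the brightest at 16.97. Averaged over conditions, 5 of these markers read above the control in LP-1-cIAP2-eGFP cells and 1 below it (limma adjusted p under 0.05). Of all genes tested, 9.03% were higher and 12.7% lower. By the same test, 24 h of bortezomib lowered 8 and raised 1 in control cells, where the list's median change was −1.58. It lowered 7 and raised 1 in LP-1-cIAP2-eGFP, with a median of −1.37. The medians of all genes tested were −0.03 and −0.16. Of all genes, 15.1% fell and 13.3% rose in control cells, and 22% fell and 14.4% rose in LP-1-cIAP2-eGFP. The part of these markers in the IRF changes was not tested.

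Markers of other cell types were also read. Of 8 B-cell markers on the array, CD79A was above background on all arrays and MS4A1 and PAX5 on none. The summed signal of this list was 10.97 to 11.25 in LP-1-eGFP and 11.33 to 13.40 in LP-1-cIAP2-eGFP, so the lines did not overlap. The highest value is from the array described next, and the other 7 of that line read 11.33 to 11.76. CD79A was the brightest gene of the list at 10.82. None of 6 T-cell markers was above background on all arrays. CD2 was the brightest at 6.56, CD3D was above background on 8 control arrays and 4 LP-1-cIAP2-eGFP arrays, and the summed list read 8.16 to 9.25 in control cells. In LP-1-cIAP2-eGFP it read 6.90 to 8.19 on 7 arrays, mostly below the control, and 11.55 on that same array. Of 6 myeloid markers, FCER1G, an Fc receptor subunit, was above background on all arrays at 9.71 and CSF1R on none, with sums of 9.57 to 10.26 in control cells and, in LP-1-cIAP2-eGFP, 9.86 to 10.33 on 7 arrays and 11.82 on that array. The part of these genes in the differences between the lines was not tested.

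Among the arrays, 1 stood apart, namely replicate 1 of the cIAP2 cells after 24 h of bortezomib, called the dim array here. Its median log2 signal before normalization was 3.18, against 5.73 to 6.64 on the other 15 arrays, and 35.5% of its spots were well above background, against 49.0% to 71.1%. Its replicates differed with an SD of 1.48 on the log2 scale, against 0.50 to 0.77 in the other conditions. The arrays lay on 2 slides that held the lines unevenly, with 6 LP-1-cIAP2-eGFP arrays on slide 1 and 2 on slide 2, and the reverse for the control, and slide was fitted as a block where its effect is given.

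Promoter sequence is shown for IRF1 and IRF9, the members with lower signal in LP-1-cIAP2-eGFP whose lines did not overlap in any condition. How many of all genes separate in this way was not counted. RefSeq windows (GRCh38.p14) were held for 4 of the 7 genes, namely 1 for IRF1, 4 for IRF5, 2 for IRF8 and 1 for IRF9. The 250 bases before the annotated start are printed in lower case, with matches to the 3 motifs searched in capitals. The motifs were the STAT site GAS (TTCNNNGAA), a tandem GAA as bound by IRFs (GAANNGAA, both strands) and the NF-κB consensus by name. The NF-κB consensus was searched on the strand as printed and not on the other. Their shares among all 35116 RefSeq windows, which also take in the first bases after the start, were 7.66%, 19% and 8.4%. IRF1 lies on the minus strand, at chr5:132490774-132491023 for the bases shown, with a GAS match TTCCCCGAA at −124 to −116 and an NF-κB match GGGGAATCCC at −50 to −41. IRF9 lies on the plus strand, at chr14:24161015-24161264, with a GAS match TTCTGGGAA at −63 to −55 and a tandem GAA match at −36 to −29. A match is a description of the letters and not a bound site.
IRF1: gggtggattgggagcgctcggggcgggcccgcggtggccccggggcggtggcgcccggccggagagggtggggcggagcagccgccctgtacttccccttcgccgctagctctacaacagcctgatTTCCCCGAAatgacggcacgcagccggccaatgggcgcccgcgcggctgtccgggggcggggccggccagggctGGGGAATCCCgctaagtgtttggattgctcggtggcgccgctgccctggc
IRF9: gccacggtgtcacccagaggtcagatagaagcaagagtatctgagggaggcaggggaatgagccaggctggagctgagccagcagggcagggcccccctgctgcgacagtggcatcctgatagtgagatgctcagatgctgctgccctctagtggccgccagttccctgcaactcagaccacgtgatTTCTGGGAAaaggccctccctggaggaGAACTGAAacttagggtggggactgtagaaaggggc

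The first question was which IRFs differed between the lines. Averaged over the 4 treatments and times, 4 of 7 members passed an adjusted p of 0.05 (limma, Benjamini-Hochberg over all probes tested), where IRF8 was higher in the cIAP2 cells and IRF1, IRF2 and IRF9 were lower. With slide blocked, as with array weights, 2 passed, IRF1 and IRF9. Of all genes tested, 21.8% passed, 9.03% higher and 12.7% lower. In untreated cells IRF1 alone passed, lower, as did 6.58% of genes. IRF9 passed as well without the dim array, its replicate or the second untreated LP-1-cIAP2-eGFP array at 6 h, IRF8 with normexp background correction or without either treated control array at 24 h, IRF7 among probes above background on all arrays, and all of these with array weights. In bortezomib-treated cells IRF1, IRF2 and IRF9 passed, lower, as did 8.36% of genes, and the call of IRF2 was lost under most alternatives. The median log2 difference of the 7 genes was −0.22, against −0.01 for all genes tested. With the thresholds of the study's own rules put on limma fits, IRF1 alone passed, lower. Those of its 3-way analysis, whose own model was not refitted, are an adjusted p under 0.001, read here from the limma difference averaged over the conditions, and over 2-fold in untreated cells, and 2.43% of genes were lower under it. The comparison of 8 with 8 arrays asks for an unadjusted p under 0.005 and over 2-fold, and 3.5% of genes were lower under it.

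**Figure D1:**
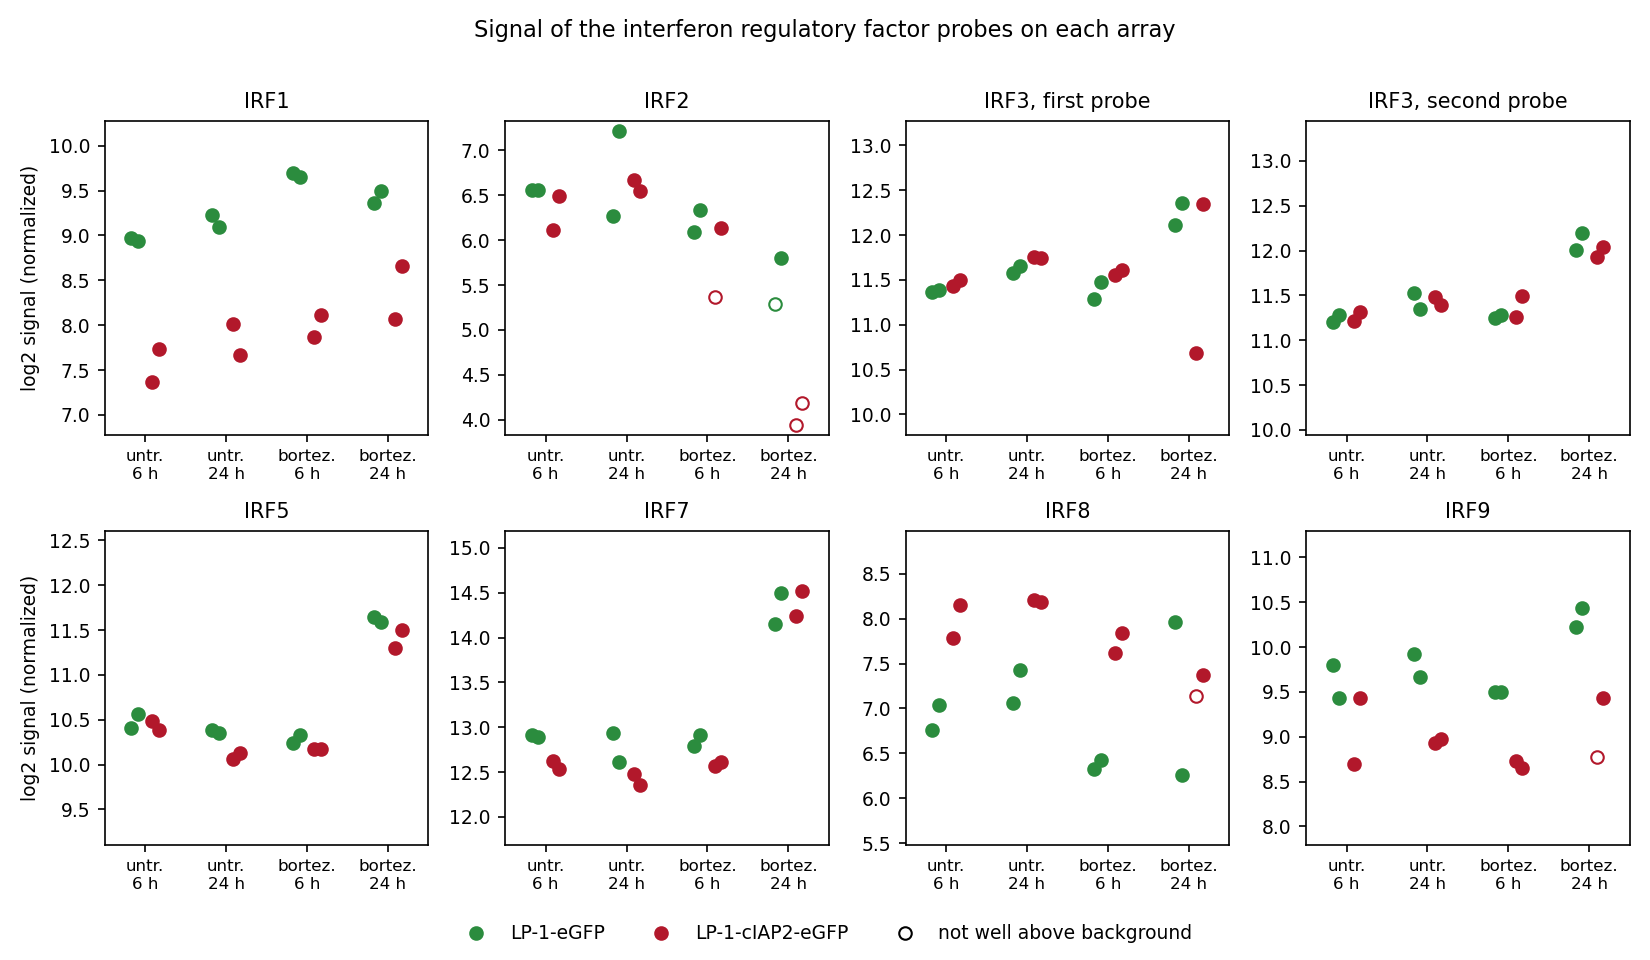
Normalized log2 signal (y axis, each panel spanning the same log2 range) of the 8 IRF probes on each of the 16 arrays, by treatment and time (x axis), with a point for each array; open points were not well above background. IRF1 and IRF9 lie lower in LP-1-cIAP2-eGFP in all 4 conditions, and IRF5 and IRF7 lie highest after 24 h of bortezomib in both lines.

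IRF1, the activator of antigen presentation and immunoproteasome genes, showed the clearest separation. In LP-1-eGFP it read 8.98 and 8.94 untreated at 6 h, 9.23 and 9.10 untreated at 24 h, 9.69 and 9.66 with bortezomib at 6 h, and 9.37 and 9.49 with bortezomib at 24 h. In LP-1-cIAP2-eGFP the same conditions gave 7.37 and 7.73, 8.01 and 7.67, 7.86 and 8.11, and 8.07 and 8.66. Every control array was above every LP-1-cIAP2-eGFP array. The untreated means were 9.06 ± 0.13 and 7.70 ± 0.27 (SD, n = 4). The difference between the lines was −1.37 (SE 0.11, 95% interval −1.62 to −1.12, 2.59-fold lower, limma adjusted p = 2.79e-05) over all conditions, −1.36 (adjusted p = 0.000576) untreated and −1.38 (adjusted p = 0.00056) with bortezomib. Within slide 1 it was −1.57 untreated at 6 h and −1.003 with bortezomib at 24 h. Within slide 2 it was −1.24 and −1.49 untreated at 6 h and 24 h. Without the dim array it was −1.31.

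In the fit to all arrays IRF1 was not called for bortezomib at either time in either line. Its condition means ranked, from high to low, control with bortezomib at 6 h and at 24 h, control untreated at 24 h and at 6 h, and then the 4 LP-1-cIAP2-eGFP conditions. Among the latter, the replicates of neighbouring conditions overlapped. At 6 h in control cells the difference was 0.72 (95% interval 0.22 to 1.21, adjusted p = 0.17), and both treated arrays were above both untreated ones. It passed without the dim array (adjusted p = 0.0423), without the other array of that condition (0.0408), with array weights (0.0034) and among probes above background on all arrays (0.0444). At 24 h in LP-1-cIAP2-eGFP it was 0.52 (adjusted p = 0.11), and without the dim array 0.83 (adjusted p = 0.0173). It also passed with 75th percentile scaling (0.0438) and among probes above background on all arrays (0.049).

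IRF9, the DNA-binding subunit of ISGF3, was also lower in LP-1-cIAP2-eGFP. In control cells it read 9.80 and 9.44 untreated at 6 h, 9.92 and 9.66 untreated at 24 h, 9.49 and 9.50 with bortezomib at 6 h, and 10.22 and 10.44 at 24 h. In LP-1-cIAP2-eGFP it read 8.70 and 9.43, 8.93 and 8.97, 8.73 and 8.65, and 8.77 and 9.43, and the first of the last pair was not well above background. The lines did not overlap within any of the 4 conditions, a separation that was not counted for all genes. At 6 h untreated the gap was narrow, since the lower control array read 9.44 and the higher LP-1-cIAP2-eGFP array 9.43. The difference was −0.86 (SE 0.14, 1.81-fold lower, limma adjusted p = 0.0021) over all conditions, −0.70 (adjusted p = 0.062) untreated and −1.02 (adjusted p = 0.0098) with bortezomib. The untreated difference passed without the dim array (−0.70, adjusted p = 0.023) and with array weights (0.0253). Within slides the difference between the lines ran from −1.12 to −0.37. A fit that blocked on slide gave −0.69 (adjusted p = 0.0216) over all conditions and −0.77 with bortezomib, where the call was lost (adjusted p = 0.103), as it was with normexp background correction (0.0584) and with array weights (0.141).

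IRF8, a B-cell and myeloid factor that falls as B cells become plasma cells, was the member that was higher in LP-1-cIAP2-eGFP. In control cells it read 6.76 and 7.04 untreated at 6 h, 7.06 and 7.43 untreated at 24 h, 6.33 and 6.42 with bortezomib at 6 h, and 7.96 and 6.25 at 24 h. In LP-1-cIAP2-eGFP it read 7.79 and 8.16, 8.21 and 8.19, 7.62 and 7.84, and 7.14 and 7.38, and the array at 7.14 was not well above background. LP-1-cIAP2-eGFP was above the control in 3 of 4 conditions, and at 24 h with bortezomib the 2 control arrays lay on either side of it. The difference was 0.88 (SE 0.22, 1.84-fold higher, adjusted p = 0.0203) over all conditions, 1.01 (adjusted p = 0.084) untreated and 0.75 (adjusted p = 0.18) with bortezomib. The untreated difference passed with normexp background correction (0.0383), with array weights (0.0302) and without the first (0.0040) or second (0.0035) treated control array at 24 h. The difference with bortezomib passed with normexp (0.0451), with slide as a random block (0.0397) and without the first of those arrays (0.0041). Within slides the difference between the lines was 0.75 and −0.70 on slide 1, and 1.40 and 0.94 on slide 2. The call over all conditions was lost when slide was blocked (0.68, adjusted p = 0.16) and with array weights (0.0645). It was also lost in 4 of the 16 fits that left out an array, namely the first control array at 6 h, untreated (0.061) or treated (0.0534), and the second untreated LP-1-cIAP2-eGFP array at 6 h (0.0528) or 24 h (0.0512).

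IRF2, the repressor that shares the sites of IRF1, was well above background on 12 of 16 arrays, the fewest of the 7 genes. Untreated control arrays read 6.56 and 6.56 at 6 h and 6.27 and 7.22 at 24 h, and untreated LP-1-cIAP2-eGFP arrays 6.12 and 6.49, and 6.67 and 6.55, so that the untreated lines overlapped. With bortezomib the control read 6.09 and 6.34 at 6 h and 5.28 and 5.80 at 24 h. LP-1-cIAP2-eGFP with bortezomib read 5.36 and 6.13 at 6 h and 3.94 and 4.18 at 24 h, and of these 4 arrays the one at 6.13 was well above background. The control array at 5.28 was not. The fall at 24 h passed in both lines, at −1.20 in control cells (95% interval −1.97 to −0.43, limma adjusted p = 0.033) and in LP-1-cIAP2-eGFP by the same test (adjusted p = 0.000506). Since no LP-1-cIAP2-eGFP array at 24 h of bortezomib was well above background, the fold there has a bound, and IRF2 was at least 1.42-fold lower, with the lowest signal among probes above background on each array in place of the dim value where that was higher. The fall in control cells did not pass with slide blocked (−1.10, adjusted p = 0.0822), scaled to the 75th percentile (−1.15, adjusted p = 0.14) or with no filter on signal (adjusted p = 0.0615). It was −0.60 with normexp background correction, and −0.72 (adjusted p = 0.24) without the second untreated control array at 24 h. It did not pass in 8 of the 16 fits that left out an array. In LP-1-cIAP2-eGFP the call was lost with array weights (adjusted p = 0.0541). The difference between the lines was −0.58 (adjusted p = 0.0458) and did not pass with normexp background correction (−0.20, adjusted p = 0.19), with 75th percentile scaling (−0.32, adjusted p = 0.44), with slide blocked (−0.49, adjusted p = 0.23) or in 13 of the 16 fits that left out an array, among them that without the dim array (−0.57, adjusted p = 0.0652). It also did not pass with the authors' values (adjusted p = 0.0563), no filter on signal (0.0816), array weights (0.119) or unmoderated variances (0.0603). In bortezomib-treated cells alone the difference between the lines was −0.97 (adjusted p = 0.035), where 3 of 4 treated LP-1-cIAP2-eGFP arrays were not well above background. That call was lost with 75th percentile scaling (−0.48, adjusted p = 0.44), normexp background correction (−0.31, 0.18), slide blocked (0.23), array weights (0.25), the authors' values (0.0502) and no filter on signal (0.064), and in 12 of the 16 fits that left out an array.

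IRF3, IRF5 and IRF7 were not called between the lines in the fit to all arrays. For the first IRF3 probe the difference was −0.07 (95% interval −0.52 to 0.38), and for the second 0.01 (−0.15 to 0.17). The first probe was higher in LP-1-cIAP2-eGFP without overlap in 3 of 4 conditions, and its difference was 0.13 (adjusted p = 0.17) without the dim array. The difference was −0.16 (−0.31 to −0.02, adjusted p = 0.13) for IRF5 and −0.22 (−0.41 to −0.03, adjusted p = 0.12) for IRF7. IRF5 and IRF7 were each lower in LP-1-cIAP2-eGFP without overlap in 3 of 4 conditions. The share of all genes that separate in this way is not given, so the separation of any member describes its arrays only. IRF5 passed among probes above background on all arrays (adjusted p = 0.0284) and with unmoderated variances (0.0198), and IRF7 with the same filter (0.0421) and with slide as a random block (0.0468).

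**Figure D2:**
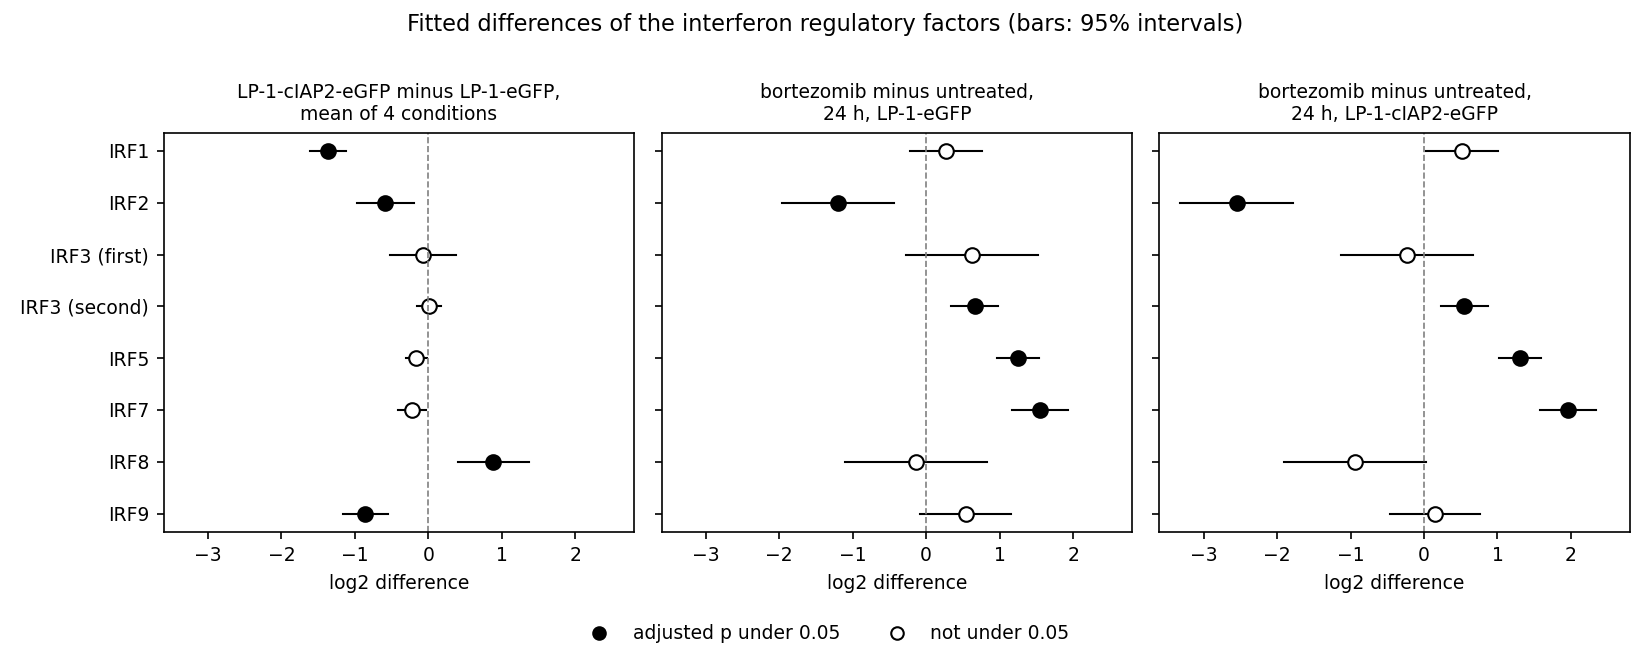
Fitted log2 differences of the IRF probes (x axis; bars are 95% intervals from the limma fit, n = 2 arrays a condition) between the lines averaged over 4 conditions, and between bortezomib and no treatment at 24 h in each line. IRF1 at −1.37 is the largest difference between the lines among the 7 genes, and IRF5 and IRF7 lie above 1 on the log2 scale after bortezomib in both; the IRF2 value in LP-1-cIAP2-eGFP rests on arrays that were not well above background, and at least 1.42-fold lower is the change they allow.

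The second question was how the IRFs moved with the proteasome inhibitor. At 24 h IRF5 and IRF7 rose and IRF2 fell in both lines. Of all genes tested, 13.3% rose and 15.1% fell in control cells, and 14.4% rose and 22% fell in LP-1-cIAP2-eGFP. The median change of the 7 genes was 0.54 and 0.15, against −0.03 and −0.16 for all genes, and the latter became 0.03 when arrays were scaled to their 75th percentile. The members' medians were 0.54 and 0.60 without the dim array. At 6 h limma called 0 of 7 members in either line, against 2.87% of genes in control cells and 1.48% in LP-1-cIAP2-eGFP. At an unadjusted p of 0.05 the counts were 1 (IRF1) and 0. The share of all genes at that limit is not given.

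IRF7, the kinase-activated inducer of the interferon α genes, rose the most. In control cells it read 12.91 and 12.90 untreated at 6 h, 12.93 and 12.61 untreated at 24 h, 12.80 and 12.92 with bortezomib at 6 h, and 14.15 and 14.50 at 24 h. In LP-1-cIAP2-eGFP it read 12.62 and 12.53, 12.48 and 12.36, 12.57 and 12.61, and 14.24 and 14.52. The 4 arrays with 24 h of bortezomib were above the other 12, and the lines overlapped there. The rise was 1.55 (SE 0.17, 2.93-fold, limma adjusted p = 0.000222) in control cells and 1.96 (SE 0.17, 3.89-fold, adjusted p = 4.84e-05) in LP-1-cIAP2-eGFP. The difference between these rises was 0.41 (95% interval −0.14 to 0.95, adjusted p = 0.63). Within slide 1 LP-1-cIAP2-eGFP rose by 1.90, and within slide 2 control cells rose by 1.72.

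IRF5, which acts below Toll-like receptors, followed the same course at a lower size. In control cells it read 10.41 and 10.56 untreated at 6 h, 10.38 and 10.35 untreated at 24 h, 10.25 and 10.33 with bortezomib at 6 h, and 11.65 and 11.59 at 24 h. In LP-1-cIAP2-eGFP it read 10.48 and 10.38, 10.06 and 10.13, 10.17 and 10.18, and 11.30 and 11.50. Here too the 4 arrays with 24 h of bortezomib were above the other 12. The rise was 1.25 (SE 0.13, 2.38-fold, limma adjusted p = 0.000148) in control cells and 1.30 (SE 0.13, 2.47-fold, adjusted p = 8.95e-05) in LP-1-cIAP2-eGFP. The rises differed by 0.05 (95% interval −0.36 to 0.46). Within slide 1 LP-1-cIAP2-eGFP rose by 1.34, and within slide 2 control cells by 1.23.

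The 2 probes of IRF3, the constitutive partner of IRF7, gave different calls. The first probe read 11.37 and 11.39 untreated at 6 h, 11.58 and 11.65 untreated at 24 h, 11.29 and 11.48 with bortezomib at 6 h, and 12.11 and 12.36 at 24 h in control cells. In LP-1-cIAP2-eGFP it read 11.43 and 11.50, 11.75 and 11.75, 11.56 and 11.61, and 10.69 and 12.35, where 10.69 is from the dim array. The change at 24 h was 0.62 (adjusted p = 0.36) in control cells and −0.23 (95% interval −1.13 to 0.66) in LP-1-cIAP2-eGFP. Without the dim array the latter was 0.60 (limma adjusted p = 0.015) and the former 0.62 (adjusted p = 0.0038). The second probe read 11.20 to 11.53 on all 12 arrays outside 24 h of bortezomib. There it read 12.00 and 12.20 in control cells and 11.93 and 12.04 in LP-1-cIAP2-eGFP, and it rose by 0.66 (adjusted p = 0.0086) and 0.55 (adjusted p = 0.018). Thus 3 of the 4 treated arrays read above all untreated arrays of their line on both probes, and the dim array did so on the second probe alone.

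IRF8 and IRF9 were not called at 24 h in the fit to all arrays. IRF9 changed by 0.54 (95% interval −0.08 to 1.15) in control cells and 0.15 (−0.47 to 0.76) in LP-1-cIAP2-eGFP (0.48 without the dim array), and IRF8 by −0.14 (−1.11 to 0.83) and −0.94 (−1.91 to 0.03). With the first treated control array at 24 h left out, IRF8 passed as lower in control cells (−0.996, adjusted p = 0.0344) and in LP-1-cIAP2-eGFP (−0.94, adjusted p = 0.0103). With the second left out it read 0.71 (adjusted p = 0.0874) in control cells and passed in LP-1-cIAP2-eGFP (−0.94, adjusted p = 0.0094).

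The third question was whether bortezomib moved any IRF differently in the 2 lines. Limma called 0 of 7 members for the difference between lines in the change at 6 h or at 24 h, against 0% and 0.104% of genes tested. At an unadjusted p of 0.05 the counts were 0 and 1, the latter being IRF2 (−1.35, 95% interval −2.44 to −0.26, adjusted p = 0.55), which rests on arrays not well above background. With the second LP-1-cIAP2-eGFP array at 24 h of bortezomib left out, so that the dim array stands alone, IRF3 was called (−1.69, adjusted p = 0.000372), as were 28.1% of all probes tested in that fit. Time alone, 24 h against 6 h in untreated cells, was called for 0 of 7 members, against 0.0122% of genes. At an unadjusted p of 0.05 it was 1 member, IRF5. The shares of all genes at an unadjusted p of 0.05 are not given.

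The members fell into different courses over the 16 arrays. IRF5 and IRF7 had r = 0.97, and IRF1 and IRF9 r = 0.79, while IRF1 and IRF8 had r = −0.76 and IRF2 and IRF7 r = −0.76. These values describe arrays that share conditions, scaling and the dim array. The value for IRF2 also rests in part on arrays where it was not well above background. IRF1, IRF5 and IRF7 varied by over 1 log2 unit across condition means and were above background on every array, and the genes with the most similar course were sought among 4712 others that met the same limits. Over the 8 condition means these were JMY (r = 0.986), NIBAN2 (0.985) and BMAL1 (0.980) for IRF1. They were MAP3K10 (0.994), TRIM68 (0.992) and SMIM29 (0.991) for IRF5, and SERPINI1 (0.998), PAM (0.997) and DOK4 (0.994) for IRF7. Over the 16 arrays these r ran from 0.933 to 0.984.

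The genes around the IRFs were read by role, from lists drawn up with earlier results of these data known. Of the interferons, IFNB1 (adjusted p = 0.79), IFNL1 (0.72) and IFNE (0.54) did not pass between the lines. They were above background on 5, 6 and 11 of 16 arrays, so that no size is given. The other 3 with a probe failed the filter. Of 12 receptor, JAK and STAT genes, 2 were higher and 5 lower in the cIAP2 cells, with a median of −0.23, where 9.03% of all genes were higher and 12.7% lower. With slide blocked 2 were lower. STAT3, a signal carrier of cytokine receptors, was lower by −1.34 (limma adjusted p = 0.0079) and the kinase TYK2 by −0.72 (0.0296). IFNLR1, the interferon λ receptor, was higher by 1.43 (0.0068). STAT2, a subunit of ISGF3, was lower by −0.35 (0.0158), and JAK1 read −0.46 (0.17).

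The same 12 genes moved in both directions with 24 h of bortezomib, 3 higher and 4 lower in control cells and 2 higher and 5 lower in the cIAP2 cells. Of all genes 13.3% and 15.1% did so in control cells and 14.4% and 22% in the cIAP2 cells. Without the dim array 4 were higher and 4 lower in the latter, and the list's median there went from −0.80 to −0.25. STAT2 rose by 1.35 (limma adjusted p = 0.000375) in control cells and 1.44 (0.000201) in LP-1-cIAP2-eGFP. Of the receptor chains, IFNGR1 for interferon γ rose by 1.04 and 1.48, and IFNAR2 for type I interferon fell, with −1.82 and −1.92.

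Sensors, adaptors and kinases above IRF3, IRF5 and IRF7 were 1 higher and 7 lower of 19 between the lines (9.03% and 12.7% of all genes), with a median of −0.39. The counts were 3 and 8 without the dim array, and 0 and 5 with 75th percentile scaling. ZBP1, a sensor of nucleic acids, was lower by −2.29 (limma adjusted p = 6.7e-07), the adaptor STING1 by −1.30 (8.76e-06), the RIG-I relative DHX58 by −0.78 (0.0211) and the adaptor TICAM1 by −0.56 (0.000785). The IRF3 and IRF7 kinases TBK1 (0.30, adjusted p = 0.13) and IKBKE (−0.63, 0.34) did not pass. At 24 h of bortezomib 7 rose and 3 fell in control cells, and 4 rose and 4 fell in LP-1-cIAP2-eGFP, against the shares of all genes given for the receptors. TBK1 rose by 1.54 (0.0013) and 1.34 (0.0023) and TRAF6, a ubiquitin ligase above IRF5 and IRF7, by 1.39 and 1.41, while ZBP1 fell, with −1.52 and −1.49, the latter with 1 of 2 treated arrays above background. IKBKE changed by −0.70 (adjusted p = 0.64) in control cells and by −2.35 (adjusted p = 0.0481) in LP-1-cIAP2-eGFP, where the dim array was not above background. Without the dim array 8 of the 19 rose in LP-1-cIAP2-eGFP.

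Partners and regulators of the IRFs were 1 higher and 5 lower of 16 between the lines (9.03% and 12.7% of all genes), with a median of −0.25, or −0.13 without the dim array. SOCS3, a feedback inhibitor of STAT signals, passed as lower (limma adjusted p = 0.000994), and it was above background on all 8 control arrays and 2 LP-1-cIAP2-eGFP arrays. Its fitted difference of −3.51 rests mostly on signals near background in that line. The related SOCS1 was lower by −1.26 (0.000735), SPIB, an Ets factor that binds beside IRFs, by −1.42 (0.041, on means of 10.61 and 10.99 in untreated LP-1-cIAP2-eGFP and control cells, and of 4.42 and 8.61 with bortezomib at 24 h, where 1 of 2 LP-1-cIAP2-eGFP arrays was above background) and USP18, which removes ISG15 and dampens the type I receptor, by −0.81 (0.0049, above background on 5 of 8 LP-1-cIAP2-eGFP arrays). With 24 h of bortezomib 1 rose and 3 fell in control cells (2 and 5 without the dim array, 0 and 1 with slide blocked), and 2 rose and 5 fell in LP-1-cIAP2-eGFP. Of all genes 13.3% rose and 15.1% fell in control cells and 14.4% and 22% in LP-1-cIAP2-eGFP. SOCS1 rose by 1.23 (0.0277) in control cells and 2.55 (0.000473) in LP-1-cIAP2-eGFP. USP18 fell by 1.83 in control cells and was at least 2.33-fold lower in LP-1-cIAP2-eGFP, where neither array was above background, and IKZF3, a lymphoid zinc finger factor, fell, with −1.69 and −2.18, each on 1 treated array above background.

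**Figure D3:**
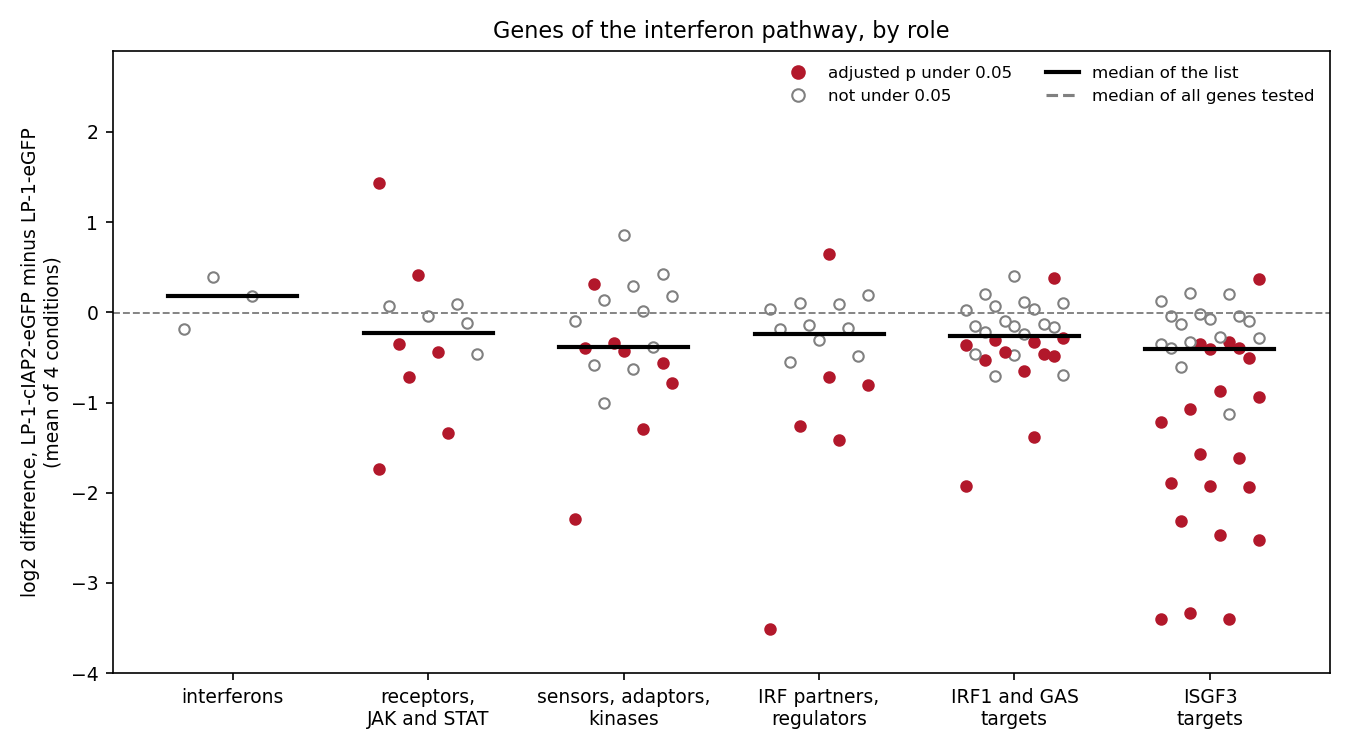
Fitted log2 differences of LP-1-cIAP2-eGFP from control cells over the 4 conditions (y axis) for each tested gene of 6 lists around the IRFs (x axis), with a point for each gene. Filled points passed an adjusted p of 0.05, and 20 of the 37 ISGF3 targets are filled below 0.

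Targets of IRF1 and of GAS sites were 1 higher and 11 lower of 30 between the lines (9.03% and 12.7% of all genes), with a median of −0.26 against −0.01. CIITA, the master regulator of MHC class II, was lower by −1.92 (limma adjusted p = 0.000985), the chemokine CXCL10 by −0.65 (0.0065, with 1 flagged control spot left out) and the immunoproteasome subunit PSMB9 by −0.53 (0.000349). The GTPase GBP1 passed as lower (adjusted p = 0.0298), but it was above background on 5 control arrays and on no LP-1-cIAP2-eGFP array, and no fold is given. At 24 h of bortezomib 6 rose and 14 fell in control cells and 8 rose and 11 fell in LP-1-cIAP2-eGFP, with 6 (20%) rising and 11 (36.7%) falling in both lines, as did 10.2% and 13.1% of all genes. CIITA fell, with −3.14 (0.0026) and −5.04 (0.000143, above background on 1 treated array), as did CXCL10, with −3.00 (from 1 treated array) and −2.76, and GBP2 rose by 2.51 (0.000539) and 2.32 (0.000645). In LP-1-cIAP2-eGFP both were above background on 1 of 2 treated arrays. With slide blocked, and also with 75th percentile scaling, 7 targets were lower between the lines.

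Targets of ISGF3 were the list with the most genes lower in LP-1-cIAP2-eGFP, 20 of 37 against 1 higher (12.7% and 9.03% of all genes), with a median of −0.40. In untreated cells 11 were lower and 1 higher (6.58% and 4.19% of all genes), with a median of −0.55. PARP9 was lower by −3.40 (limma adjusted p = 0.000119), and it was above background on 8 control arrays and 4 LP-1-cIAP2-eGFP arrays. The antiviral proteins IFITM1 (−3.40, adjusted p = 5.26e-05, 1 flagged control spot left out) and MX1 (−3.34, 3.74e-06, 1 flagged LP-1-cIAP2-eGFP spot left out) were also lower, and MX1 was above background on 8 control arrays and 5 LP-1-cIAP2-eGFP arrays. RSAD2, known as viperin, was at least 2.72-fold lower (adjusted p = 9.92e-05), since no LP-1-cIAP2-eGFP array was above background. With slide blocked 14 were lower, and without the dim array 21.

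With 24 h of bortezomib more ISGF3 targets rose than fell, though most passed in neither direction. In control cells 14 rose and 2 fell (13.3% and 15.1% of all genes), and in LP-1-cIAP2-eGFP 10 rose and 5 fell (14.4% and 22%). In both lines 10 of 37 (27%) rose and 2 (5.41%) fell, against 10.2% and 13.1% of all genes. Without the dim array 15 rose and 6 fell in control cells, and 12 and 5 in LP-1-cIAP2-eGFP. With slide blocked 13 rose and 1 fell in control cells, and with 75th percentile scaling 13 rose and 3 fell in LP-1-cIAP2-eGFP. The medians were 0.39 and 0.27, against −0.03 and −0.16 for all genes. In LP-1-cIAP2-eGFP the list's median was 0.52 without the dim array, 0.53 with 75th percentile scaling and 0.16 with slide blocked. IFIT3, which binds viral RNA, rose by 5.72 (limma adjusted p = 1.41e-05) in control cells and 5.18 (1.04e-05) in LP-1-cIAP2-eGFP, and IFIT1 by 5.33 and 3.54. IFI44 was at least 14.0-fold and 17.1-fold higher, since no untreated array at 24 h was above background. MX1 and ISG15, which are also interferon-stimulated genes, read 0.16 (adjusted p = 0.81) and 0.59 (0.26) in control cells. In LP-1-cIAP2-eGFP ISG15 read 0.61 (0.18) and MX1 −0.39 from 1 untreated array. For that MX1 value the other untreated spot was flagged, and 1 of 2 treated arrays was above background. IFITM1 passed as lower with bortezomib in LP-1-cIAP2-eGFP (adjusted p = 0.0011), where 1 of 2 treated arrays was above background. In control cells it read −2.06 from 1 treated array, the other spot being flagged. ISG15, named here after its values were seen, was lower in LP-1-cIAP2-eGFP by −2.31 (1.11e-05). HERC5, the ISG15 ligase, also named after its values were seen, rose by 0.99 (0.0037) in control cells and fell by 0.57 (0.0426) in LP-1-cIAP2-eGFP, but the difference between these changes was not called (−1.55, adjusted p = 0.11).

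**Figure D4:**
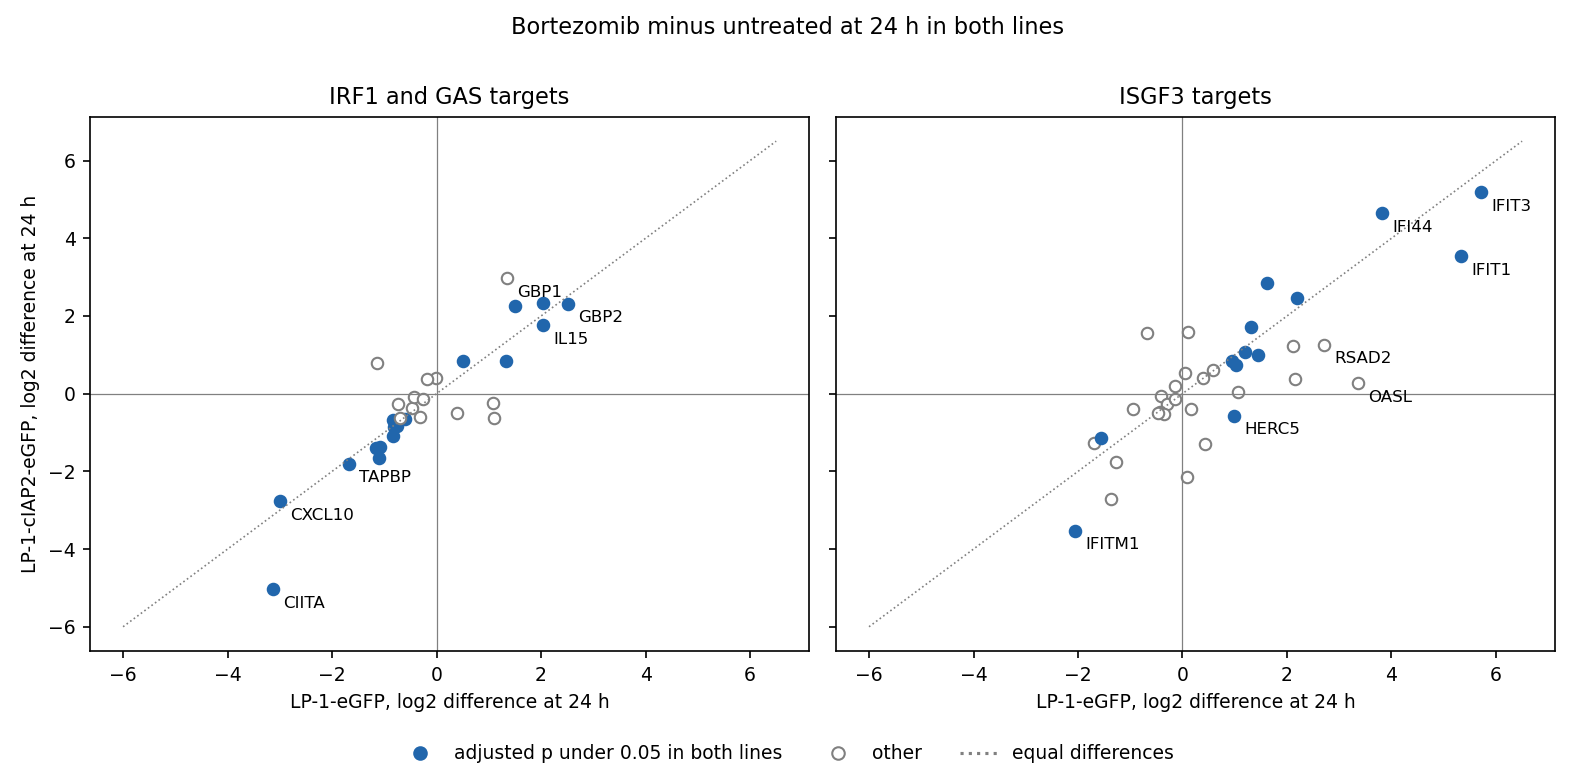
Log2 difference between bortezomib and no treatment at 24 h in LP-1-eGFP (x axis) and LP-1-cIAP2-eGFP (y axis) for the tested targets of IRF1 and GAS sites (left) and of ISGF3 (right), with a point for each gene and the dotted line at equal values. IFIT3, at 5.72 and 5.18, lies highest, and CIITA, at −3.14 and −5.04, lowest; values of genes that were not above background in a condition rest on signals near background.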

How the data were processed

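Agilent SurePrint G3 Human 8×60K v2 arrays (Cy3) were scanned by the authors, and the deposited scanner files hold each spot's intensity after background subtraction by Feature Extraction 10.7.3.1, with no scaling between arrays. The authors' GeneSpring table, deposited on a log2 scale centred per probe, was used as an alternative. It correlated at 0.9986 or more with the same array's centred intensities.

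Flagged spots were left out, spots of a probe averaged, and log2 values quantile normalized (limma 3.58.1, R 4.3.3). A probe entered if both arrays of any condition read it well above background, and the 33725 such probes were fitted with 1 mean for each condition, lmFit and eBayes, and p-values were adjusted over all of them. A gene's brightest probe stands for it. RefSeq accessions named 55.7% of probes.

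The members and gene lists were chosen with earlier results of these data known. Named were all members, BIRC3, and in each list up to 4 called genes with the largest difference between lines and up to 3 called alike in both lines at 24 h, plus STAT2, JAK1, TBK1 and IKBKE. Some genes that this rule names are not reported here. The number of arrays limits precision. Alternatives were other scalings and background corrections, filters, blocks for slide and replicate number, array weights, unmoderated variances and leaving out each array. The main fit did not pair arrays by replicate number. The correlations of replicate differences between conditions ran from −0.11 to 0.24, with 7 of 28 above 0.1. These values cannot settle whether replicate numbers paired the arrays.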

Additional observations from a re-analysis of the deposited data

Results flagged for a closer look

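Of 16 groups of 4 untreated arrays (8 probes in 2 lines), 2 held an array whose gap to the nearest of the others was a larger share of the group's range than Dixon's 95% limit, and chance flags about 1 in 20 groups. IRF7 read 12.61 on the second untreated control array at 24 h, against 12.90 to 12.93 on the other 3 (share 0.887). IRF8 read 7.79 on the first untreated LP-1-cIAP2-eGFP array at 6 h, against 8.16 to 8.21 on the other 3 (share 0.884).

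HERC5 moved in opposite directions with 24 h of bortezomib, up on both arrays of the control and down on both arrays of LP-1-cIAP2-eGFP. The difference between the changes was −1.55 and was not called by limma (adjusted p = 0.109).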

How the results depend on the processing

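Leaving aside omitted arrays, 119 of 131 counts of members called stayed within 1.5 times, as did 176 of 192 with an array left out. For single members, 549 of 592 values kept their direction and side of the threshold, 22 lost and 15 gained a call and 6 changed sign. The causes were not tested. IRF1 was called lower over all conditions under every alternative (adjusted p 3.95e-06 to 0.000652, and 7.4e-06 to 0.000252 with an array left out), as were the rises of IRF5 and IRF7 at 24 h in both lines. IRF9 was called lower under every alternative that kept its probe (0.000458 to 0.0383), and the filter on all 16 arrays left out IRF2, IRF8 and IRF9. IRF8 lost its call with the slide as a fixed block and with array weights (adjusted p = 0.0645), and IRF2 in most.

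Counts of members moved as follows. Over all conditions 2 were called with the slide as a fixed block and with array weights. Of all probes 9.21% and 13.7% were called there, against 16.1% without either setting. In untreated cells 2 were called with normexp, 2 with probes above background on all 16 arrays and 4 with array weights. Of all probes 7.02%, 19.9% and 15% were called there, against 7.74% without these settings. The filter on all 16 arrays left 4 members tested. With bortezomib 1 was called with the slide as a fixed block, 1 with array weights and 1 with probes above background on all arrays. Of all probes 3.75%, 3.47% and 21.8% were called there, against 9.36% without these settings. At 6 h in control cells array weights and probes above background on all arrays each called 1, IRF1. There 16.3% and 11.5% of all probes were called, against 1.95% without these settings. The comparison of 8 with 8 arrays called 2 with normexp and 2 with array weights. Of all probes 1.83% and 4.85% passed it there, against 3.54% without these settings. With the replicate number as a block 4 members were called over all conditions, 1 untreated and 3 with bortezomib, and no member's call changed. Of all probes 18.2%, 9.34% and 11% were called with that block.

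With an array left out, the counts ran from 2 to 7 over all conditions (7 without the second LP-1-cIAP2-eGFP array at 24 h of bortezomib, where 36.6% of all probes were called against 16.1% with all arrays, 2 without the first control arrays at 6 h or the second untreated LP-1-cIAP2-eGFP arrays), 1 to 2 untreated, 2 to 4 with bortezomib, 0 to 1 at 6 h in control cells, 3 to 5 at 24 h in LP-1-cIAP2-eGFP (5 without the dim array), 0 to 1 for the difference in change at 24 h (IRF3, without the dim array's replicate, where 28.1% of probes were called), and 1 to 2 under the thresholds of both of the study's rules. A lone array was assumed to vary like the other conditions. The share of all probes called also moved in these fits. It is not set beside most of these counts, so the counts describe the fits and not the members alone. At 24 h in LP-1-cIAP2-eGFP it was 28.6% with all arrays and did not rise without the dim array.

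Of values that were not called, these changed sign. IRF7 at 6 h in control cells became 0.018 (75th percentile). IRF9 at 24 h in LP-1-cIAP2-eGFP −0.82 and the IRF7 difference in change −0.038 (normexp). IRF7 at 6 h in LP-1-cIAP2-eGFP −0.0025 (authors' table). IRF3 at 6 h in control cells −0.034 (slide block). IRF3 at 24 h in LP-1-cIAP2-eGFP 0.16 (probes averaged).

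With an array left out, signs also changed within these ranges. For IRF3 they were −0.28 to 0.13 between the lines, −0.68 to 0.16 with bortezomib, −0.091 to 0.10 at 6 h in control cells and −1.07 to 0.60 at 24 h in LP-1-cIAP2-eGFP. For IRF7 they were −0.11 to 0.013 at 6 h in control cells and −0.029 to 0.057 in LP-1-cIAP2-eGFP. For IRF9 they were −0.30 to 0.064 at 6 h in control cells and −0.18 to 0.48 at 24 h in LP-1-cIAP2-eGFP. IRF2 ran from −0.43 to 0.043 between untreated lines, and IRF8 from −0.996 to 0.71 at 24 h in control cells. The difference in change at 24 h ran from −0.043 to 0.56 for IRF1, −0.053 to 0.15 for IRF5 and −1.65 to 0.053 for IRF8.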
